A study of Saccharomyces cerevisiae with 12 samples.

Results

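ACS1, ACS2, ACC1, FAS1, FAS2 and OLE1 are the budding yeast genes for the steps from acetate to unsaturated fatty acids: acetyl-CoA synthetase, acetyl-CoA carboxylase, fatty acid synthase and fatty acid desaturase. These 6 of the 6002 nuclear protein-coding genes were chosen by name, and every CpG site from 600 bp upstream to 500 bp downstream of their start codons was taken, which gave 237 of 354107 nuclear CpG sites. ACS1 had 37 sites, ACS2 44, ACC1 50, FAS1 32, FAS2 36 and OLE1 38. Absolute DNA accessibility was measured by ODM-seq, in which the CpG methyltransferase M.SssI methylates chromatin close to saturation and Nanopore sequencing reads the methylated CpGs on native DNA. A methylation level is the share of reads called methylated at a site, so a nucleosome or a tightly bound factor lowers it. There were 12 libraries from 3 constructs, with 2 biological replicates each (independent clones) and aliquots taken after 3 h and 4 h of methylation.

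All cells were strain BY4741 ABF1-aa-V5, 1 clone (A9), in which the chromosomal Abf1 carries an anchor-away tag. All were grown in YNB medium without leucine, treated with 8 µg/mL rapamycin for 75 min, which takes the tagged Abf1 out of the nucleus, and crosslinked with formaldehyde. The groups differed by the pRS315 plasmid: libraries labelled EM shuffle carried a construct of that name (Abf1 with its essential motif shuffled), no Abf1 libraries carried the empty plasmid, and WT Abf1 libraries carried wild-type Abf1. Nothing here measured how much tagged Abf1 was left in the nucleus. No Abf1 and WT Abf1 libraries shared 1 labelled batch and the libraries labelled EM shuffle came from another, so for the libraries labelled EM shuffle batch and construct cannot be told apart. Coverage of the ABF1 gene relative to its flanks was 0.901 to 1.10 in libraries labelled EM shuffle, 0.821 to 1.06 in no Abf1 and 1.78 to 1.92 in WT Abf1 libraries, and coverage of LEU2, the plasmid's marker, was 0.104 to 0.319 in libraries labelled EM shuffle, 0.823 to 1.17 in no Abf1 and 0.485 to 0.723 in WT Abf1 libraries. ABF1 coverage clearly above that of its flanks was thus seen with WT Abf1 but not in the libraries labelled EM shuffle. Relative to the median coverage of the genome, ABF1 had 1.04 and 1.29 in replicate 1 labelled EM shuffle and 2.04 and 1.85 in replicate 2. It had 0.852 to 1.07 in no Abf1 and 1.81 to 2.10 in WT Abf1. In replicate 2 labelled EM shuffle ABF1 and its flanks were thus both raised. The files also list plasmid sequences to which reads could map, so this coverage need not count plasmid copies in full, and the part of it in the results was not tested.

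Acetyl-CoA is the substrate of fatty acid synthesis. Acs1 and Acs2 make it from acetate, Acs1 mainly when glucose is scarce and Acs2 during growth on glucose. Acc1, the rate-limiting carboxylase, turns acetyl-CoA into malonyl-CoA. Fas1 and Fas2, the beta and alpha subunits of the cytosolic synthase, build palmitoyl- and stearoyl-CoA from both, and the endoplasmic reticulum desaturase Ole1 adds a double bond. The promoters of such genes hold nucleosome-free regions (NFRs) between positioned nucleosomes, and general regulatory factors such as Abf1, Reb1 and Rap1 bind there. Abf1 is an essential zinc-finger protein with a bipartite consensus. Ino2/Ino4 activates lipid genes and Ume6 represses meiotic and some metabolic genes.

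The sequences given here hold the Abf1 consensus matches of ACS1, FAS1 and ACS2, and, for contrast, part of the NFR of FAS2, which had none. Some of the differences described further on lie inside these matches, and others lie beside them or elsewhere. Each is written 5′ to 3′ on the strand of its gene, from the R64 genome: ACS1 from chrI:45313-45522 (minus strand), FAS1 from chrXI:99871-99930 (plus strand), ACS2 from chrXII:447701-447750 (minus strand) and FAS2 from chrXVI:108347-108461 (plus strand). Capitals mark Abf1 consensus matches in the first 3, and a Reb1 and an Ino2/Ino4 match in FAS2.
ACS1: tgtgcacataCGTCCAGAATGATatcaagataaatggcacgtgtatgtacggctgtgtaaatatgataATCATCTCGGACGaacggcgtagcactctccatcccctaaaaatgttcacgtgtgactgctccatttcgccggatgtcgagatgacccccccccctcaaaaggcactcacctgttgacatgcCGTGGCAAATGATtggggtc
FAS1: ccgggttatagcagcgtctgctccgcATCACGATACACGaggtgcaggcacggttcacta
ACS2: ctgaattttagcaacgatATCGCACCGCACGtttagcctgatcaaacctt
FAS2: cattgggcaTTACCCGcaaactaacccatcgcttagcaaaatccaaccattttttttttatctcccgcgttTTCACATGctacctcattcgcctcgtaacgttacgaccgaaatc

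The Abf1 consensus, Reb1 (TTACCCG), Rap1 (ACCCNNACA), Ino2/Ino4 (CATGTGAA) and Ume6 (TAGCCGCC) were searched on both strands. Within 600 bp upstream, ACS1 held 3 Abf1 matches, centred 304, 426 and 484 bp from the start codon, ACS2 held 1 at 151 bp, and ACC1, FAS1, FAS2 and OLE1 held none. Such a match stood within 600 bp of 1180 of all 6002 genes (19.7%), a Reb1 match of 659 (10.98%), a Rap1 match of 389 (6.48%), an Ino2/Ino4 match of 98 (1.63%) and a Ume6 match of 169 (2.82%). ACS1 also held a Reb1 match at 534 bp and a Ume6 match at 124 bp, and FAS2 a Reb1 match at 293 bp and an Ino2/Ino4 match at 231 bp. After the values had been seen, the search was taken on through the intergenic space to the neighbouring gene. There FAS1 held an Abf1 match at 768 bp, OLE1 1 at 660 bp and ACC1 2 at 1056 and 1177 bp. This space also held Ino2/Ino4 matches at 865 and 703 bp in FAS1 and at 714 bp in ACC1. In ACC1 it held a Reb1 match at 1156 bp and a Rap1 match at 1121 bp as well. No matches overlapped each other. A match describes letters, not a bound site.

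Values are given as corrected methylation, the uncorrected level divided by a factor that brings each construct's genome average to that of WT Abf1 (0.871 for libraries labelled EM shuffle, 1.04 for no Abf1, 1 for WT Abf1), so that levels of the first can pass 100%. The 4 values of a group are in the order replicate 1 at 3 h and 4 h, then replicate 2 at 3 h and 4 h. The aliquots of a replicate are technical replicates, so groups whose libraries do not overlap are set apart by 2 replicates each. How many features of the genome separate in this way was not counted. Means ± SD are over the 2 replicates with both aliquots pooled (n = 2). Differences are log2 odds ratios from a quasi-binomial fit that takes out the genome average on the odds scale, with adjusted p over all features of the genome and a call at adjusted p under 0.05. Because the 2 corrections act on different scales, a high corrected mean in the libraries labelled EM shuffle can stand above that of WT Abf1 beside an odds ratio near 0. This holds well below 100% too. Total CpG calls per library were 13253872 to 37756743, and the median coverage of a CpG was 32 to 94 reads.

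All 6 genes had an NFR, but its place, width and height differed. ACS2 and FAS2 had their accessible stretch nearest to the start codon, from 333 to 160 bp upstream in ACS2 and from 357 to 131 bp in FAS2, with window levels (250 to 51 bp upstream) of 52.4% to 65.8% and 60.3% to 67.0% in the 3 constructs. The windows of ACS1, ACC1, FAS1 and OLE1 lay between 25.3% and 37.6%, and their accessible stretches lay farther upstream. In OLE1 11 CpGs from 583 to 419 bp upstream averaged 85.2% ± 1.09 in libraries labelled EM shuffle, 77.6% ± 1.68 in no Abf1 and 76.8% ± 4.56 in WT Abf1. In FAS1 11 CpGs from 750 to 607 bp averaged 84.2% in libraries labelled EM shuffle, 72.2% in no Abf1 and 76.9% in WT Abf1, and in ACC1 18 CpGs from 815 to 618 bp averaged 76.4% in libraries labelled EM shuffle, 65.3% in no Abf1 and 68.9% in WT Abf1. These stretches were chosen by their levels and were not tested. Higher corrected levels in the libraries labelled EM shuffle need not mean more accessible DNA here. In the OLE1 bin from 600 to 501 bp these libraries had 87.1%, against 77.6% in WT Abf1. Uncorrected they had 75.9%, and the log2 odds ratio was 0.15 (adjusted p = 0.881).

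**Figure D1:**
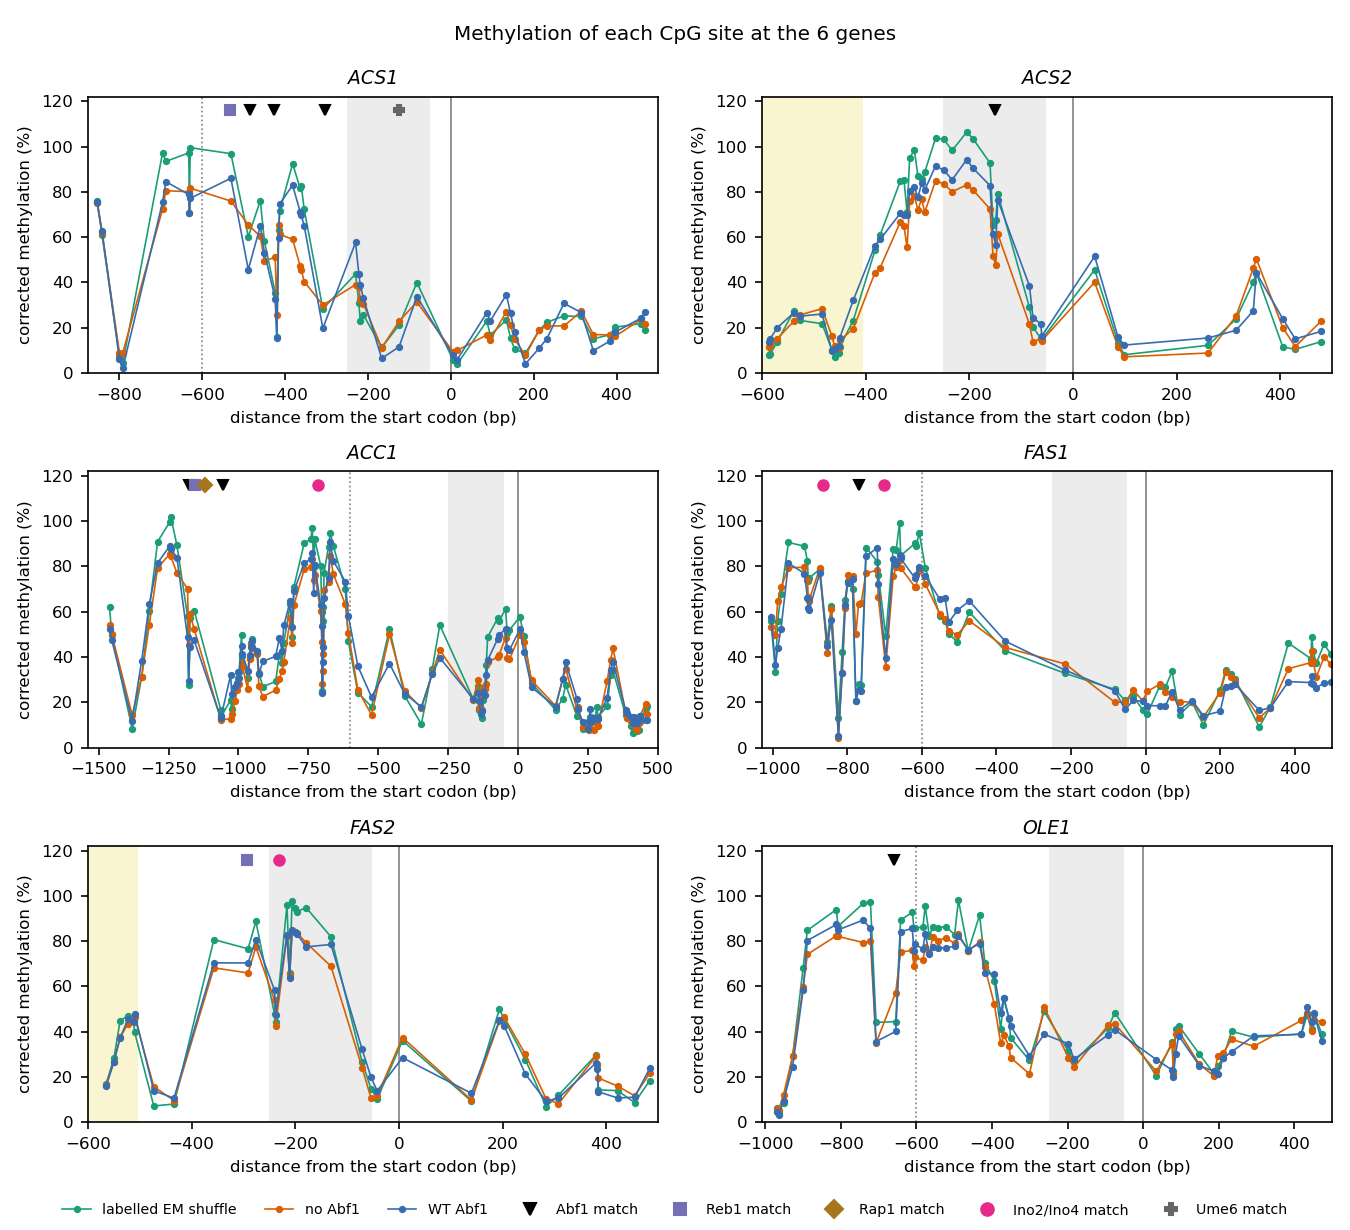
Corrected methylation (%) of every CpG site against distance from the start codon (bp), 1 panel per gene. Green points are libraries labelled EM shuffle, orange no Abf1 and blue WT Abf1 (means of 2 replicates); grey bands mark the promoter window, the dotted line 600 bp, the yellow band coding sequence of the upstream neighbour, and the symbols consensus matches. The high stretches of ACS2 (333 to 160 bp) and FAS2 (357 to 131 bp) reach into the grey window, and those of the other 4 genes lie upstream of it.

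Removal of Abf1 from the nucleus was first compared with WT Abf1, within 1 batch. Of the 6 promoter windows 1 was called, ACS2, which was lower, against 679 of 5846 windows in the genome (11.6%). Of 63 bins of 100 bp 5 were called, 1 higher and 4 lower, against 7.05% of all bins. Of 237 CpG sites 12 were called, 3 higher and 9 lower, against 4.36% of all sites (2.36% higher and 2.00% lower). Of these 12 sites ACS1 held 7 and ACS2 4, OLE1 held 1, and ACC1, FAS1 and FAS2 held none within the 600 bp. The shares for the 6 genes were close to those of the genome in bins and sites. With limma on logit levels in place of the quasi-binomial fit, 0 of these bins and 1 of these sites were called.

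The flanks of promoter Abf1 matches, 10 to 75 bp to either side, were called in 62.7% of 810 matches, and called lower in 57.4%. The median log2 odds ratio was −0.63 over all of them. ACS1 and ACS2 hold 4 such matches, and 3 of these were lower without Abf1 than with WT Abf1, with a median of −0.59 over the 4.

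ACS1 (YAL054C, chrI:42881-45022, minus strand) shares 876 bp of intergenic space with the divergent gene FLC2, and showed the most called sites of the 6 genes. Its bin from 400 to 301 bp upstream, which holds 4 CpGs between the matches at 426 and 304 bp and 1 inside the match at 304 bp, had 66.5%, 65.8%, 63.9% and 78.9% methylation in libraries labelled EM shuffle. It had 47.3%, 45.0%, 41.5% and 44.1% in no Abf1, against 58.5%, 69.2%, 59.7% and 57.4% in WT Abf1. Every no Abf1 library thus stood below every library of the other 2 groups. The mean was 44.5% ± 2.24 in no Abf1 and 60.9% ± 3.01 in WT Abf1 (log2 odds ratio −0.93, SE 0.17, adjusted p = 0.000589), and the call was lost with limma (adjusted p = 0.0839).

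The CpG 382 bp upstream of ACS1 lies between the matches at 426 and 304 bp. In the libraries labelled EM shuffle it had 96.1%, 88.6%, 79.8% and 99.03%. It had 62.4%, 57.5%, 51.8% and 63.6% in no Abf1 and 83.6%, 88.1%, 82.7% and 77.1% in WT Abf1, and no Abf1 again overlapped neither other group (−1.68 against WT Abf1, adjusted p = 9.54e-05, with the call lost in 4 h aliquots alone, adjusted p = 0.104). The CpGs at 364, 361 and 354 bp were also lower without Abf1, with log2 odds ratios of −1.42, −1.43 and −1.42. Each of these 3 calls was lost when 1 replicate was left out: WT Abf1 replicate 1 for 364 bp (adjusted p = 0.0823) and 361 bp (adjusted p = 0.0754), and no Abf1 replicate 2 or WT Abf1 replicate 2 for 354 bp (adjusted p = 0.0521 and 0.0913). The CpG at 230 bp had 39.1% ± 3.38 in no Abf1 and 57.7% ± 0.210 in WT Abf1 (−1.08, adjusted p = 0.0217), a call lost when any 1 of these replicates was left out (adjusted p = 0.0605 to 0.236). The whole NFR centre, 5 CpGs from 413 to 354 bp, averaged 80.7% ± 3.49 in libraries labelled EM shuffle, 51.3% ± 2.20 in no Abf1 and 73.3% ± 3.12 in WT Abf1, an untested stretch chosen after its values were seen.

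CpGs inside the ACS1 matches went the other way. The match at 484 bp stands 393 bp upstream of the divergent gene FLC2, nearer to it than to ACS1. The CpG at 489 bp, in the match at 484 bp, had 67.8%, 70.0%, 61.7% and 62.0% in no Abf1 and 50%, 58.5%, 38.2% and 37.5% in WT Abf1, so all 4 no Abf1 libraries were above all 4 WT Abf1 libraries (1.25, SE 0.29, adjusted p = 0.000786). The CpG at 424 bp, in the match at 426 bp, averaged 51.1% ± 4.54 in no Abf1 and 32.8% ± 1.29 in WT Abf1 (1.12, adjusted p = 0.0181). The first call was lost without no Abf1 replicate 1 (adjusted p = 0.132) or WT Abf1 replicate 2 (adjusted p = 0.169), and the second without no Abf1 replicate 2 (adjusted p = 0.222), WT Abf1 replicate 1 (adjusted p = 0.200) or WT Abf1 replicate 2 (adjusted p = 0.0827). The CpG at 420 bp in the same match had 25.6% in no Abf1 and 15.3% in WT Abf1 (0.85, adjusted p = 0.354), and that at 309 bp in the match at 304 bp had 29.98% in no Abf1 and 19.7% in WT Abf1 (0.78, adjusted p = 0.196). Both of these missed the threshold. The CpG at 531 bp in the Reb1 match averaged 75.9% in no Abf1 and 86.0% in WT Abf1 (−0.74, adjusted p = 0.394).

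The flanks of the match at 304 bp had 46.2%, 42.9%, 40.9% and 43.0% in no Abf1, against 65.8%, 72.2%, 64.8% and 62.2% in WT Abf1 (−1.33, SE 0.21, adjusted p = 3.67e-06). The flanks of the match at 426 bp averaged 55.4% ± 1.37 in no Abf1 and 64.9% ± 3.80 in WT Abf1 (−0.52, adjusted p = 0.00136), a call lost with a coverage minimum of 20 (−0.23, adjusted p = 0.210). Those of the match at 484 bp averaged 57.0% ± 0.112 in no Abf1 and 57.2% ± 0.521 in WT Abf1 (0.05, adjusted p = 0.804), and read −0.36 when the flanks were taken out to 150 bp. These flanks share CpGs with each other.

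The ACS1 promoter window itself lies downstream of all 3 matches. It had 26.4%, 26.5%, 31.3% and 30.5% in no Abf1 and 32.0%, 30.3%, 32.8% and 26.3% in WT Abf1, and the groups overlapped (−0.16, adjusted p = 0.670). A window from 400 to 1 bp, which takes in the bin described above, was called lower (−0.47, adjusted p = 0.00663).

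**Figure D2:**
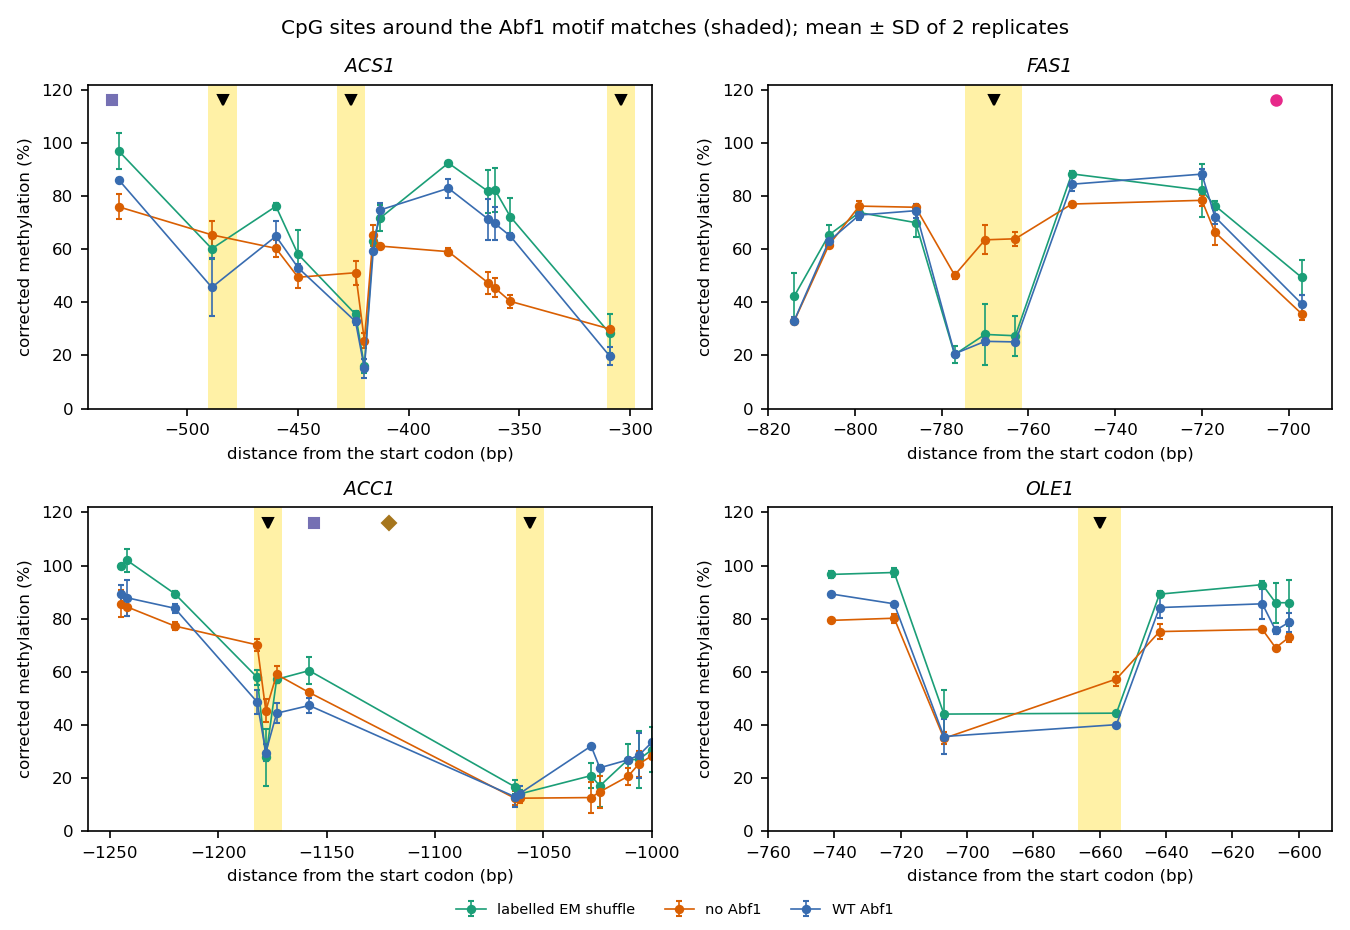
Corrected methylation (%) of single CpG sites around Abf1 matches (yellow) upstream of ACS1, FAS1, ACC1 and OLE1, against distance from the start codon (bp); points are means and bars SDs of 2 replicates. At the FAS1 match the 3 CpGs read 50.2% to 63.9% in no Abf1 and 20.6% to 25.3% in WT Abf1, and at ACS1 the no Abf1 line runs below the other 2 at the 5 CpGs from 413 to 354 bp. The square, the diamond and the circle mark Reb1, Rap1 and Ino2/Ino4 matches.

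ACS2 (YLR153C, chrXII:445524-447575, minus strand), the synthetase used during growth on glucose, was the gene with a called promoter window. Its 406 bp to the upstream gene RNH203, which lies on the same strand, hold the NFR. The window had 50.8%, 54.4%, 52.2% and 52.6% in no Abf1 and 61.1%, 65.1%, 59.5% and 61.8% in WT Abf1, with no overlap. The mean was 52.4% ± 0.0552 in no Abf1 and 61.7% ± 1.74 in WT Abf1 (−0.50, SE 0.10, adjusted p = 0.000657), and this call held in all 15 alternatives.

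Both called bins of ACS2 were lower in no Abf1, 1 partly inside the accessible stretch and 1 downstream of it. The bin from 200 to 101 bp had 63.2%, 67.4%, 65.2% and 62.1% in no Abf1 and 74.2%, 80.2%, 70.0% and 78.3% in WT Abf1 (−0.63, adjusted p = 0.0171). The bin from 100 to 1 bp had 14.3%, 18.8%, 14.7% and 18.3% in no Abf1 and 23.2%, 27.9%, 25.8% and 22.6% in WT Abf1 (−0.78, adjusted p = 0.00926). The bin with the highest level, from 300 to 201 bp, averaged 79.1% in no Abf1 and 86.5% in WT Abf1 and was not called (−0.52, adjusted p = 0.0809). The groups overlapped in neither called bin, but the calls were lost in 6 and 5 of 13 alternatives. Leaving out any 1 of the no Abf1 and WT Abf1 replicates took the first to adjusted p = 0.0517 to 0.144, and leaving out no Abf1 replicate 1, no Abf1 replicate 2 or WT Abf1 replicate 2 took the second to adjusted p = 0.0678, 0.0787 and 0.0865. The flanks of the match at 151 bp averaged 51.2% ± 0.527 in no Abf1 and 63.1% ± 2.00 in WT Abf1 (−0.66, adjusted p = 0.00119), a call kept in all 14 alternatives.

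The ACS2 match differed from those of ACS1 in the CpGs it contains. The CpGs at 154, 149 and 145 bp averaged 51.5%, 47.7% and 61.5% in no Abf1 and 61.4%, 56.6% and 76.5% in WT Abf1, all lower in no Abf1. The last was called (−0.94, adjusted p = 0.0457), but lost its call in 12 of 13 alternatives, among them the replicate block (adjusted p = 0.0595) and the omission of any 1 replicate (adjusted p = 0.0519 to 0.325). Of the other ACS2 sites called, the CpG at 84 bp had 21.6% ± 0.814 in no Abf1 and 38.6% ± 8.63 in WT Abf1 (−1.17), and that at 424 bp, in the coding sequence of RNH203, 19.4% ± 3.48 in no Abf1 and 32.1% ± 4.21 in WT Abf1 (−1.0). The first call was lost without no Abf1 replicate 1 (adjusted p = 0.0730) or WT Abf1 replicate 1 (adjusted p = 0.203), and the second without no Abf1 replicate 1 (adjusted p = 0.373), no Abf1 replicate 2 (adjusted p = 0.0605) or WT Abf1 replicate 2 (adjusted p = 0.449). The CpG 348 bp into the ACS2 coding sequence was higher, with 46.2% ± 8.05 in no Abf1 and 27.4% ± 4.63 in WT Abf1 (1.18, adjusted p = 0.0104), a call lost without no Abf1 replicate 2 (adjusted p = 0.282), WT Abf1 replicate 1 (adjusted p = 0.0607) or WT Abf1 replicate 2 (adjusted p = 0.171).

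FAS1 (YKL182W, chrXI:100671-106826, plus strand) had no called difference in its window, but held the site with the lowest adjusted p of all CpGs named here. The CpG at 763 bp, inside the Abf1 match centred 768 bp upstream, had 59.9%, 63.9%, 60.9% and 71.0% methylation in no Abf1, against 19.4%, 32.7%, 26.3% and 23.3% in WT Abf1. The mean was 63.9% ± 2.71 in no Abf1 and 25.1% ± 0.159 in WT Abf1 (2.46, SE 0.30, adjusted p = 2.56e-13). The CpG at 770 bp had 54.8%, 64.7%, 64.7% and 70.3% in no Abf1 and 18.3%, 37.0%, 27.3% and 20.5% in WT Abf1 (2.41, adjusted p = 2.43e-12).

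The CpG at 777 bp, just upstream of the FAS1 match, had 44.5%, 54.0%, 51.4% and 50.9% in no Abf1 and 12.5%, 31.0%, 20.8% and 20.9% in WT Abf1 (1.97, SE 0.33, adjusted p = 5.82e-07). No library of either group reached the other at any of these 3 CpGs, and all 3 calls held in 13 of 13 alternatives. Together the 3 CpGs averaged 59.9% ± 3.18 in no Abf1 and 23.8% ± 0.480 in WT Abf1. The match lies in the 1029 bp to LOT5, which is on the same strand as FAS1. It was found in the search that was extended after values had been seen.

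The FAS1 window, with 3 CpGs, had 23.0%, 29.7%, 26.7% and 23.0% in no Abf1 and 23.8%, 25.3%, 25.7% and 26.7% in WT Abf1 (0.03, adjusted p = 0.969). The bin from 400 to 499 bp into the coding sequence had 33.2%, 35.4%, 41.4% and 41.1% in no Abf1 and 24.8%, 28.4%, 32.1% and 29.7% in WT Abf1 (0.58, adjusted p = 0.0475), a call lost in 5 of 13 alternatives, among them the omission of no Abf1 replicate 2 (adjusted p = 0.328) or WT Abf1 replicate 1 (adjusted p = 0.534). The groups did not overlap.

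FAS2 (YPL231W, chrXVI:108652-114315, plus strand), the partner subunit, has a Reb1 match and no Abf1 match in the 504 bp to SSO1. Its window had 57.5%, 61.7%, 59.8% and 62.5% in no Abf1 and 60.5%, 64.4%, 64.9% and 65.9% in WT Abf1, and the groups overlapped (−0.14, adjusted p = 0.555). The CpG at 291 bp in the Reb1 match averaged 65.9% ± 2.82 in no Abf1 and 70.4% ± 0.335 in WT Abf1 (−0.19, adjusted p = 0.865). Of the 11 bins and 36 sites of FAS2 0 were called, with 1 bin and 4 sites at an unadjusted p under 0.05.

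ACC1 (YNR016C, chrXIV:654673-661374, minus strand) shares 1538 bp with the divergent gene TIM23. Its window had 23.1%, 33.0%, 27.3% and 29.3% in no Abf1 and 32.8%, 27.2%, 24.6% and 29.8% in WT Abf1 (−0.03). Of its 11 bins and its 50 sites within the 600 bp 0 were called, with 3 bins and 5 sites at an unadjusted p under 0.05. Of its 2 distant Abf1 matches, the one at 1177 bp stands 362 bp upstream of TIM23. There the CpG at 1182 bp had 65.2%, 71.6%, 67.4% and 76.4% in no Abf1 and 40.0%, 65.8%, 40.7% and 51.1% in WT Abf1, so that 1 WT Abf1 library overlapped no Abf1 (1.44, SE 0.30, adjusted p = 0.000191). The CpG at 1173 bp was also higher (0.93, adjusted p = 0.0299), but not without no Abf1 replicate 1 (adjusted p = 0.349), WT Abf1 replicate 1 (adjusted p = 0.110) or WT Abf1 replicate 2 (adjusted p = 0.273), and that at 1178 bp missed the threshold (0.99, adjusted p = 0.0677). At the match at 1056 bp the CpG at 1061 bp had 12.4% in no Abf1 and 14.1% in WT Abf1 (−0.26, adjusted p = 0.847). The 2 matches of this shared space thus read differently, and both lie nearer to TIM23 than to ACC1.

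OLE1 (YGL055W, chrVII:398628-400160, plus strand), the desaturase, is divergent to SDS23 at 1009 bp. Its window had 34.2%, 35.1%, 36.1% and 34.5% in no Abf1 and 39.8%, 42.3%, 29.3% and 32.4% in WT Abf1 (−0.01, adjusted p = 0.993). The WT Abf1 libraries spread on both sides of no Abf1, with replicate 1 above and replicate 2 below. The bin from 400 to 301 bp had 35.1%, 35.01%, 31.3% and 41.4% in no Abf1 and 58.5%, 51.7%, 36.1% and 47.7% in WT Abf1 (−0.71, SE 0.18, adjusted p = 0.0121), with 1 WT Abf1 library inside the no Abf1 range, and the call was lost in 6 of 13 alternatives. These included the omission of no Abf1 replicate 1 (adjusted p = 0.0810), no Abf1 replicate 2 (adjusted p = 0.0743) or WT Abf1 replicate 1 (adjusted p = 0.147). In this bin the CpG at 369 bp was called (38.3% ± 3.21 in no Abf1 and 55.05% ± 9.83 in WT Abf1, −0.92, adjusted p = 0.0168), but not without no Abf1 replicate 1 (adjusted p = 0.244) or WT Abf1 replicate 1 (adjusted p = 0.327).

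The Abf1 match 660 bp upstream of OLE1 lies nearer to the divergent gene SDS23, at 350 bp, and falls between accessible CpGs on either side. The CpG at 655 bp in it had 49.8%, 60.1%, 58.0% and 60.6% in no Abf1, against 42.3%, 37.2%, 38.4% and 42.0% in WT Abf1 (1.05, SE 0.27, adjusted p = 0.00471). The groups did not overlap, but 5 of 13 alternatives lost the call, among them the omission of no Abf1 replicate 2 (adjusted p = 0.0819) or WT Abf1 replicate 1 (adjusted p = 0.0906). The 12 CpGs from 900 to 603 bp around it averaged 69.8% in no Abf1 and 73.0% in WT Abf1, again untested.

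Each of the 8 Abf1 matches upstream of ACS1, ACS2, ACC1, FAS1 and OLE1 ends in a CpG that belongs to the consensus. In no Abf1 against WT Abf1 this CpG was called in 5 of the 8, higher in ACS1 (484 bp), ACC1 (1177 bp), FAS1 and OLE1, and lower in ACS2. Over all 1038 noncoding matches of the genome it was called in 50.96% in either direction, higher in 46.7% and lower in 4.24%. The median log2 odds ratio was 0.95 over the 8 and 0.81 over all 1038.

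**Figure D3:**
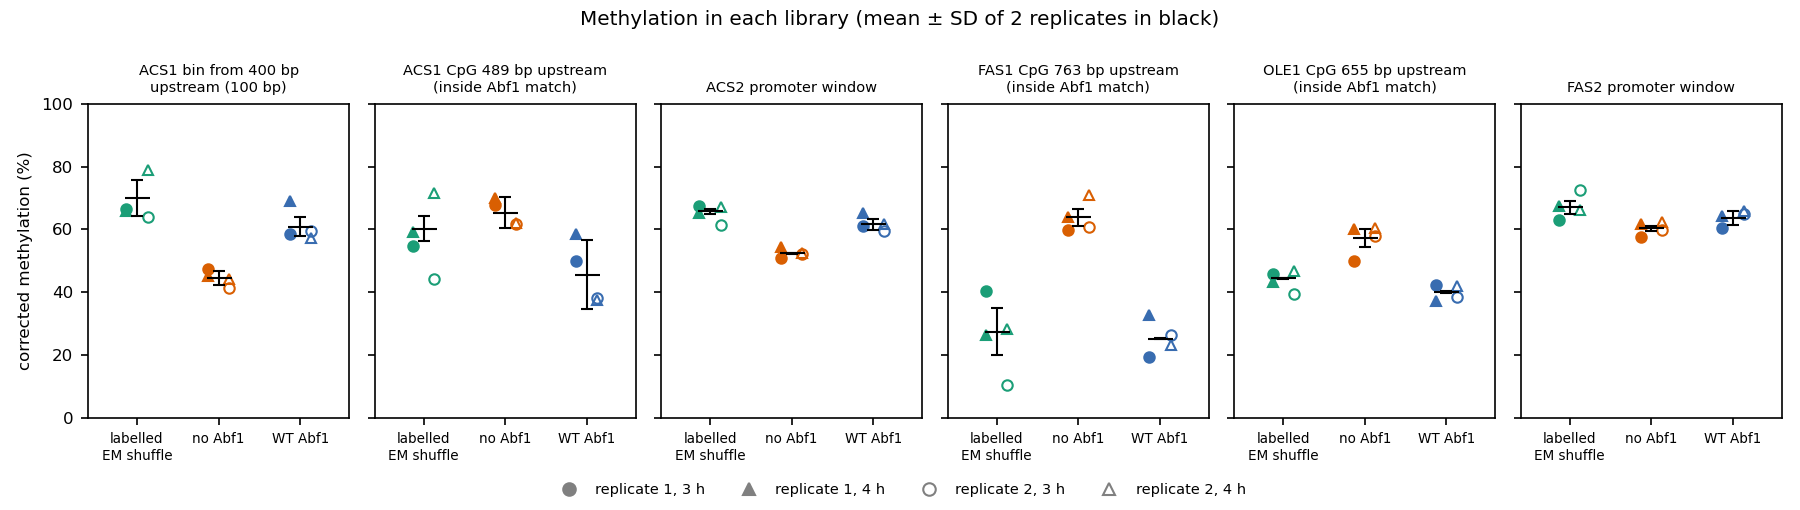
Corrected methylation (%) in each library for 6 features, with the libraries labelled EM shuffle left, no Abf1 in the middle and WT Abf1 right. Symbols give replicate and aliquot, and black bars the mean ± SD of 2 replicates. No Abf1 lies below both other groups at the ACS1 bin and the ACS2 window, and above both at the FAS1 and OLE1 CpGs; at FAS2 the no Abf1 and WT Abf1 values overlap.

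The libraries labelled EM shuffle were then compared with WT Abf1. Of the 6 windows 0 were called, against 1.11% of all windows, and 0 had an unadjusted p under 0.05. Of the 63 bins 0 were called, against 0.566%, with 4 at an unadjusted p under 0.05, and of the 237 sites 0 were called, against 0.492%, with 23 at an unadjusted p under 0.05. Of the 4 match flanks 0 were called, against 2.35%, and 0 had an unadjusted p under 0.05. With limma the count was 0 for each of these features. Of the 8 CpGs at the end of a match 0 were called, against 2.12% of all such matches. The window log2 odds ratios ran from −0.22 in ACS1 to 0.17 in ACC1. A p that misses the threshold does not show that the 2 groups were alike.

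The window of ACS1 had 29.7%, 27.2%, 27.9% and 26.2% in libraries labelled EM shuffle (27.5% ± 0.966), against a WT Abf1 mean of 30.8% ± 0.830. That of ACS2 had 67.6%, 65.4%, 61.5% and 67.1% in libraries labelled EM shuffle, against a WT Abf1 mean of 61.7% (0.02, adjusted p = 0.961). That of FAS2 had 62.9%, 67.6%, 72.7% and 66.2% in libraries labelled EM shuffle, against a WT Abf1 mean of 63.7% ± 2.25. The values for ACS2 and FAS2 lay mostly above those of WT Abf1 as corrected percentages while their odds ratios were near 0.

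At the ACS1 bin from 400 to 301 bp the log2 odds ratio was 0.25 (adjusted p = 0.756), and at the CpG at 763 bp of FAS1, with 40.4%, 26.5%, 10.4% and 28.4% in libraries labelled EM shuffle, it was 0.13 (adjusted p = 0.960). At the ACS1 CpG at 489 bp these libraries had 54.7%, 59.3%, 44.1% and 71.7%, which overlaps both other groups (0.63, adjusted p = 0.590). At the OLE1 CpG at 655 bp they averaged 44.4% ± 0.113, against 40.1% ± 0.363 in WT Abf1 (0.19, adjusted p = 0.929).

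FAS1 was the gene of the 6 whose coverage differed most between the replicates labelled EM shuffle. In replicate 1 its region had 0.954 and 1.10 times the median coverage of the genome, and in replicate 2 2.04 and 2.02 times. Its bin from 600 to 501 bp had 43.6% and 51.3% in replicate 1 and 72.1% and 67.2% in replicate 2, against 65.1% ± 4.49 in WT Abf1. Without replicate 2 this bin (−1.13, adjusted p = 0.00657) and the bin from 400 to 499 bp into the gene (1.04, adjusted p = 0.0107) were called against WT Abf1, where all replicates together gave −0.46 and 0.76 (adjusted p = 0.0636 for the second). Whether the coverage had a part in this was not tested.

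Against no Abf1, the libraries labelled EM shuffle had 1 of 6 windows called, ACS2, which was higher, against 11.5% of all windows. Of the 63 bins 4 were called, all higher, against 5.92% of all bins, and of the 237 sites 4, all higher and in ACS1, against 3.87%. Of the 4 match flanks 3 were called, all higher, against 63.1%. Of the 8 CpGs at a match end 2 were lower, those of FAS1 and ACC1 (1177 bp), against 29.0% of all 1038. This comparison shares the no Abf1 libraries with the first and lies across both batches.

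ACS2 averaged 65.8% ± 0.773 in its window in libraries labelled EM shuffle and 52.4% ± 0.0552 in no Abf1 (0.52, SE 0.10, adjusted p = 0.000616), a call lost when the genome average was not taken out. Uncorrected, this window had 57.4% in libraries labelled EM shuffle and 54.6% in no Abf1. The ACS2 bins from 400 to 301 bp and from 200 to 101 bp were called too. The first had 78.7% ± 1.47 against 61.9% ± 1.36 in no Abf1 (0.61, adjusted p = 0.0108). The second had 83.4% ± 0.0643 against 64.5% ± 0.830 (0.73, adjusted p = 0.00905). Uncorrected, the first had 68.5% in libraries labelled EM shuffle and 64.5% in no Abf1, and the second 72.7% and 67.3%. Both calls were lost when the genome average was not taken out, as was that of the ACC1 bin described below. Replicate 2 labelled EM shuffle or no Abf1 replicate 2 decided the first (adjusted p = 0.142 and 0.127 without them), and these and replicate 1 labelled EM shuffle the second (adjusted p = 0.0861 to 0.0889 without 1 of them). The ACS1 bin from 400 to 301 bp averaged 70.1% ± 5.66 in libraries labelled EM shuffle and 44.5% ± 2.24 in no Abf1 (1.18, adjusted p = 7.57e-05), and held its call in all 13 alternatives. The fourth called bin was ACC1 from 100 to 1 bp, which had 63.5%, 52.4%, 48.8% and 55.2% in libraries labelled EM shuffle and 38.2%, 40.6%, 43.2% and 45.3% in no Abf1 (0.67, adjusted p = 0.0114), with 5 of 13 alternatives losing it, among them the omission of replicate 1 labelled EM shuffle (adjusted p = 0.262) or no Abf1 replicate 1 (adjusted p = 0.128).

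The 3 CpGs at the FAS1 match were lower in the libraries labelled EM shuffle. The CpG at 777 bp had 20.3%, 24.9%, 13.5% and 20.3% in them, against 50.2% ± 1.33 in no Abf1 (−1.99, adjusted p = 4.14e-08). The CpG at 770 bp had 42.5%, 30.5%, 12.3% and 24.1%, against 63.5% ± 5.41 (−2.30), and the CpG at 763 bp gave −2.33 (adjusted p = 7.49e-14). At all 3 the values of both groups stayed apart. In ACC1 the CpG at 1182 bp averaged 57.9% ± 2.87 in libraries labelled EM shuffle and 70.1% ± 2.30 in no Abf1 (−1.03, adjusted p = 0.0304), a call lost when any 1 of these replicates was left out (adjusted p = 0.113 to 0.318).

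**Figure D4:**
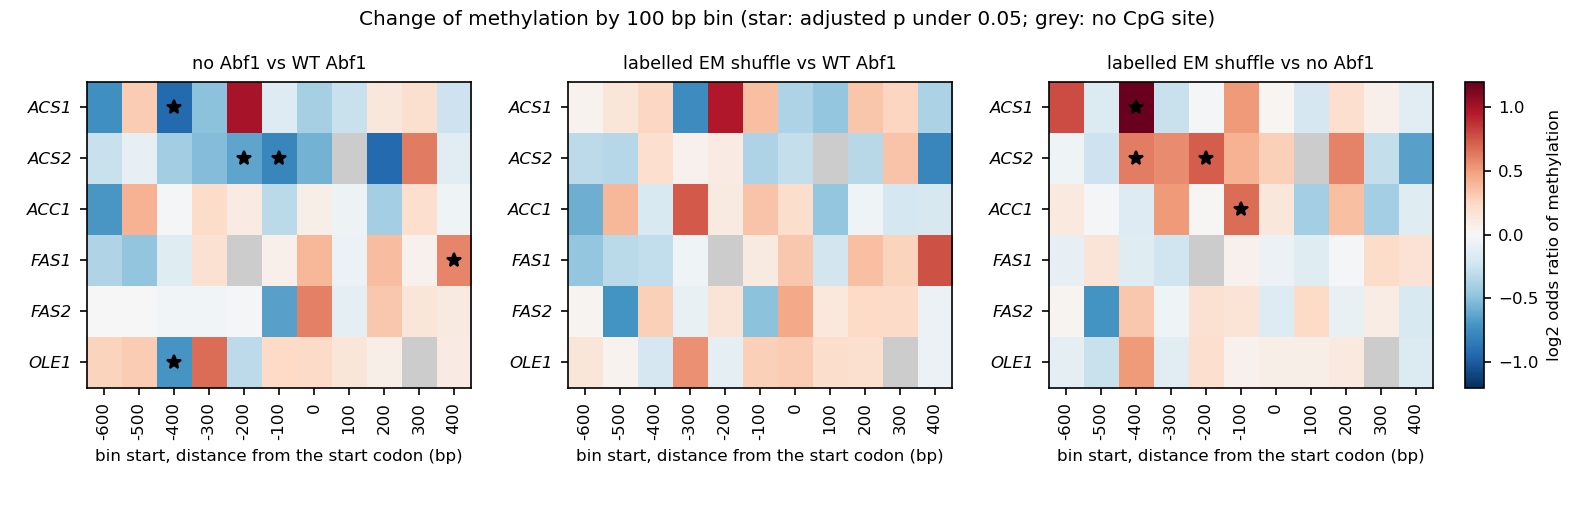
Log2 odds ratios of methylation in 100 bp bins (columns, by bin start relative to the start codon in bp) for the 6 genes (rows), in no Abf1 against WT Abf1, libraries labelled EM shuffle against WT Abf1, and libraries labelled EM shuffle against no Abf1. Stars mark an adjusted p under 0.05: 5 bins in the first panel, 0 in the second and 4 in the third; grey cells hold no CpG.

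The 4 h aliquots were compared with the 3 h aliquots of the same preparation, technical replicates that show how close methylation was to saturation. The genome average was 1.32 to 1.67 points higher at 4 h in every preparation. The windows of the 6 genes changed by −2.08 ± 2.29 points in ACS1 (positive in 1 of 6 preparations), 2.21 ± 2.56 in ACS2, 2.61 ± 5.59 in ACC1, 2.26 ± 4.18 in FAS1, 1.75 ± 3.84 in FAS2 and 1.73 ± 1.80 in OLE1 (SD, n = 6). In the quasi-binomial fit relative to the genome average 0 of the 6 were called, as were 0 of 5846 windows in all (0%), of which 342 had an unadjusted p under 0.05, and limma called 0. ACS1 was thus the gene whose window was mostly lower at 4 h, within this limit.

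Of 54 other genes of acetyl-CoA and fatty acid metabolism in 5 lists, 53 had a window that could be tested (PDC1 had too few CpGs), and 9 were called in no Abf1 against WT Abf1, 1 higher and 8 lower. By list these were 4 of 12 genes of fatty acid elongation, activation and binding, 3 of 12 regulators, 2 of 17 genes of acetyl-CoA supply, 0 of 9 mitochondrial fatty acid synthesis genes and 0 of 3 beta-oxidation genes. In these last 2 lists 0 genes had an unadjusted p under 0.05. The background of 11.6% for all windows applies here too, with 4.11% higher and 7.51% lower. ACB1, the acyl-CoA-binding protein, had 53.0% ± 0.115 in no Abf1 and 63.1% ± 2.84 in WT Abf1 (−0.56, adjusted p = 0.000447), and TSC13, the enoyl reductase of chain elongation, 37.6% ± 1.70 in no Abf1 and 52.8% ± 3.80 in WT Abf1 (−0.87). The elongase gene ELO1 (−0.43) and the acyl-CoA synthetase gene FAA1 (−0.44) were lower too. The call was lost for ACB1 without WT Abf1 replicate 2 (adjusted p = 0.144), for ELO1 without any 1 replicate other than WT Abf1 replicate 1 (adjusted p = 0.0604 to 0.571), and for FAA1 without no Abf1 replicate 1 (adjusted p = 0.219) or WT Abf1 replicate 2 (adjusted p = 0.503).

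Among the regulators SPT23 and MGA2, whose products activate OLE1, were lower, SPT23 with 60.1% ± 0.0775 in no Abf1 and 70.6% ± 0.361 in WT Abf1 (−0.60) and MGA2 with 55.1% ± 0.338 in no Abf1 and 65.6% ± 3.60 in WT Abf1 (−0.56). The SPT23 call was lost with the window from 400 to 1 bp (−0.075, adjusted p = 0.797), and that of MGA2 in 3 h aliquots alone (adjusted p = 0.0544). INO2, which encodes an activator of lipid genes, was also lower (−0.59), a call lost without no Abf1 replicate 1 (adjusted p = 0.143) or WT Abf1 replicate 1 (adjusted p = 0.0864). In acetyl-CoA supply the aldehyde dehydrogenase gene ALD5 was lower (−0.50), and the carnitine acetyltransferase gene YAT1 was the 1 gene that was higher, with 59.9% ± 5.48 in no Abf1 and 50.9% ± 0.256 in WT Abf1 (0.60, with adjusted p = 0.0556 without WT Abf1 replicate 1). The ALD5 call was lost in 4 h aliquots alone (adjusted p = 0.155) and with limma (adjusted p = 0.0532). In the comparison of the libraries labelled EM shuffle with WT Abf1, 1 of the 53 was called, against 1.11% of all windows. This was CEM1, a mitochondrial ketoacyl synthase, with 46.9% ± 0.483 in libraries labelled EM shuffle and 31.5% ± 3.61 in WT Abf1 (0.85, adjusted p = 0.0167). The call was lost without replicate 1 or 2 labelled EM shuffle (adjusted p = 0.118 and 0.178) or WT Abf1 replicate 1 (adjusted p = 0.249). Against no Abf1 9 of the 53 were called, where the share of all windows was 11.5% (8.38% higher and 3.15% lower). Those called were ACB1 (0.64), TSC13 (0.69), CEM1, MCT1, PDA1, ALD5, INO2 and MGA2, all higher, and YAT1, which was lower (−0.75). Of these, ACB1 and YAT1 kept the call whichever replicate was left out, and the other 7 lost it at least once. All 8 higher genes lost the call when the genome average was not taken out.

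The genes whose window levels were nearest to each member over the 6 replicates were RGR1 and VBA4 for ACS2 (root mean square difference 1.10 and 1.47 points), PFK1 and RFX1 for ACC1 (1.15 and 1.19), VPS33 and YGL235W for FAS1 (1.28 and 1.29), LHS1 and IMP3 for FAS2 (1.459 and 1.502), BRE5 and FAD1 for OLE1 (1.08 and 1.55), and HSL1 for ACS1 (1.17). The next for ACS1, YNL284C-B (1.298), is a Ty element gene whose reads can be shared with other copies, so its value is uncertain. None of the 6 genes was nearest to another of the 6.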

How the data were processed

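Chromatin of 12 libraries (3 constructs, 2 replicates, aliquots at 3 h and 4 h) was methylated with M.SssI and sequenced on Nanopore. The authors called bases and 5mC with Dorado, mapped reads to sacCer3 (R64) with minimap2 2.17, sorted and indexed them with SAMtools 1.9 and 1.15, made a pileup with modkit and worked in R. The deposited files give, per CpG position and strand, a count of valid calls, the methylated fraction divided by the authors' correction factor of the construct, occupancy (1 minus that value) and the factor itself, a ratio. After this division the deposited values of the libraries labelled EM shuffle are a ratio that can pass 1, and their occupancy, deposited as another such value, can fall below 0.

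Methylated calls were recovered as the rounded product of the deposited fraction, the factor and the count. Both strands were summed per CpG, and sites with under 5 calls in any library were left out (coverage minimum 5). The 3 h and 4 h aliquots of a preparation were summed. Windows (250 to 51 bp upstream, at least 2 CpGs), 100 bp bins, single sites and flanks of Abf1 matches were fitted with a quasi-binomial logistic model (pseudocount 0.5, offset for the genome average), with dispersions moderated by squeezeVar of limma 3.58.1 in R 4.3.3, two-sided, with Benjamini-Hochberg adjustment over all features of the genome. Time was fitted with the preparation as a block. The replicates came from 1 strain clone. The p-values rest on a spread between replicates that was moderated over all features of a kind. For single sites this shared spread outweighs the site's own, so a low p does not show that the replicates of that site lay close together.

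The text names the 6 genes, every called bin of theirs, CpGs inside Abf1, Reb1 or Rap1 matches and up to 5 called sites a comparison, called genes of the pathway lists up to 10 a comparison, and the 2 nearest genes per member. Sites outside this rule (ACS1 230 bp, ACS2 84 and 424 bp and in its coding sequence, OLE1 369 bp, FAS1 777 bp) were chosen after their values were seen. The members and lists were chosen with earlier results of these data known. The alternatives were no offset, a fit of the 2 compared constructs alone, single aliquots, other windows and flanks, a coverage minimum of 20, the replicate block, limma on logit levels and leaving out each replicate. Calls were also simulated at the depths of all 6 replicates, with 1 common spread for all features of a kind, which is simpler than real data. For no Abf1 against WT Abf1, 98% of 200 windows changed by a log2 odds ratio of 1 were recovered among 5846. Of the window calls 6.22% were false. Of 200 changed sites among 20000, 26% were recovered.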

Additional observations from a re-analysis of the deposited data

Results flagged for a closer look

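In 3 of 75 sets of 4 libraries 1 library stood apart from the other 3, where chance gives about 1 in 20. The FAS1 window had 19.4% in replicate 1 at 3 h of the libraries labelled EM shuffle, against 27.5%, 28.4% and 29.2% in the other 3. The ACS1 bin from 400 to 301 bp had 78.9% in replicate 2 at 4 h of the libraries labelled EM shuffle, against 66.5%, 65.8% and 63.9%. The flanks of the ACS2 match at 151 bp had 70.1% in WT Abf1 replicate 1 at 4 h, against 61.7%, 61.7% and 60.2%.

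In the OLE1 window the change between 4 h and 3 h, as a log2 odds ratio relative to the genome average, was 0.08 and 0.03 in the 2 preparations labelled EM shuffle, −0.04 and −0.19 in no Abf1 and 0.04 and 0.11 in WT Abf1. No Abf1 thus differed from WT Abf1 by −0.19, and the preparations labelled EM shuffle differed from no Abf1 by 0.17, with opposite signs in every preparation. These differences were not tested.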

How the results depend on the processing

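Of 130 counts of calls under alternatives that kept all replicates, 100 stayed within 1.5 times the reported count. For no Abf1 against WT Abf1, 5 pathway genes, 2 bins and 5 sites were called with 3 h aliquots alone, 5, 2 and 3 with 4 h aliquots alone, and 4, 0 and 1 with limma. Windows from 400 to 1 bp gave 2 called members, ACS1 and ACS2. For libraries labelled EM shuffle against WT Abf1, omitting the offset gave 9 pathway genes, 1 bin and 2 sites, and either aliquot alone gave 0 pathway genes. For libraries labelled EM shuffle against no Abf1, omitting the offset gave 2 windows, 18 pathway genes, 12 bins, 16 sites and 1 flank. These windows were ACS1 (−0.42) and FAS2, which turned to −0.29, and the ACS2 call was lost. Of these bins only that of ACS1 from 400 to 301 bp was higher, and the others were lower. Of these sites only those of ACS1 at 382, 364, 361 and 354 bp were higher, and the others were lower. Without the offset the median over all windows was −0.21 against WT Abf1 and −0.29 against no Abf1. Against no Abf1 3 pathway genes and 2 bins were called with either aliquot alone, 0 sites with 3 h alone, 2 sites with a coverage minimum of 20, 5 pathway genes, 1 bin and 2 sites with limma, and 2 windows from 400 to 1 bp, where ACS1 turned to 0.48. The flanks of the ACS1 match at 484 bp turned to −0.36 with flanks to 150 bp. No cause was tested.

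Leaving out 1 replicate gave 6 to 8 pathway genes, 1 to 5 bins and 4 to 11 sites in no Abf1 against WT Abf1, 0 to 1, 0 to 2 and 0 to 2 in libraries labelled EM shuffle against WT Abf1, and 2 to 9, 2 to 6 and 3 to 5 against no Abf1, with 2 to 3 flanks. The replicates share a number only (correlations of −0.02, −0.02 and 0.02). With the replicate block 1, 0 and 1 windows, 5, 0 and 4 bins and 11, 0 and 4 sites were called in the 3 comparisons, and the calls lost were those of the ACS2 CpG at 145 bp, ELO1 in no Abf1 against WT Abf1, and MGA2 and PDA1 between the libraries labelled EM shuffle and no Abf1. In the simulation 26% of changed single sites were recovered, which limits what a site that was not called can show. The simulation adjusted over 20000 sites and the real fit over 353646, so the share in the real fit may differ.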
